A study of Mus musculus with 12 samples.

Results

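The comparison described here is of mouse embryonic fibroblasts that carried a short hairpin RNA against p53 and then received an oncogenic form of RAS with cells that carried the hairpin alone. The members are the 3 arrays titled for shp53 plus RAS (shp53+RAS cells) and the 3 arrays titled for shp53 (shp53 cells), 6 of the 12 arrays of the series, chosen by title with no measured value. The other 6 arrays were 3 of RASV12 alone and 3 of RASV12 followed by shp53. The fibroblasts came from C57BL/6 embryos of E12.5 to E13.5, and the series title contrasts transformation that follows senescence with transformation of cells that were not senescent. In shp53+RAS cells RASV12 was added to cells whose p53 mRNA was already targeted, so both groups compared here carry the hairpin.

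The labels put limits on what the groups can model. Every measured group carried at least 1 viral vector, and shp53 cells received 1 vector where shp53+RAS cells received both. A second round of infection, the culture that follows it and RASV12 itself therefore cannot be told apart. The vectors' promoters, the RAS gene from which RASV12 derives, the time after infection and the embryos behind each replicate are not given in the labels. The design text calls the arrays of a group independent biological replicates. The p-values below set a difference against the spread between arrays of the same group, pooled over the 4 groups.

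RAS proteins are switches at the inner face of the cell membrane that pass growth factor signals to the RAF, MEK and ERK kinases. ERK raises transcription of immediate early genes such as FOS family members and of its own brakes, the DUSP phosphatases and the Sprouty proteins. The V12 form of RAS stays in the active state. In primary fibroblasts an active RAS commonly leads to a stable arrest called oncogene-induced senescence, which p53 helps to enforce, and cells with little p53 can go on dividing and become transformed. Known marks of RAS-transformed fibroblasts are release of growth factors, chemokines and matrix proteases and loss of stress fibres and of the collagen matrix.

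Gene levels are log2 signals less the array's 75th percentile, so that 0 is the level of a fairly bright probe and a step of 1 is a factor of 2. Levels compare arrays for 1 gene and do not compare genes. Differences are log2 fold changes, shp53+RAS over shp53, and a gene that rose or fell by a value did so on that scale. The standard error comes from a limma fit of all 12 arrays, 3 in each group. The 4 groups share 1 estimate of a gene's spread, so a wide spread in a group outside the comparison widens the standard error. A gene is called higher or lower at an adjusted p under 0.05. Of 13935 genes tested, 2400 (17.2%) were called higher in shp53+RAS cells and 2812 (20.2%) lower. These shares are the background against which counts of list members are read, and the median log2 fold change of all genes was 0.03. The lists were chosen with earlier results of these data known, so a share above background is a description and not a test. Called and at least 2-fold apart were 8.44% of genes upward and 12.2% downward. Non-overlapping arrays, in which every shp53+RAS value lay on one side of every shp53 value, were found upward in 25.9% of genes and downward in 27.3%. A fold written as "at least" is a bound against the lowest measurable signal, used where a group had no array well above background. The lowest signal well above background lay between -6.39 and -5.46 on the 6 arrays, and values under it were not measured reliably.

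The replicates did not lie at equal distances. Replicates 1 and 3 of shp53 had a correlation across genes of 0.998, and replicates 2 and 3 of shp53+RAS of 0.993, against 0.967 to 0.971 in the other pairs within these groups. Which arrays share embryos or a culture is not given. If the close arrays are repeats of 1 culture, each group holds 2 independent samples and the p-values of the fit on 3 arrays are too small. Replicate 2 of shp53 and replicate 1 of shp53+RAS are said below to stand apart. With each close pair averaged into 1 array, 656 genes were called higher and 959 lower. With the arrays that stand apart left out of all 4 groups, 4928 were called higher and 4589 lower. Both settings were chosen after the data were seen, and the second keeps only close pairs. Normexp, another way to correct background, left 141 genes called higher and 235 lower. With 75 extreme local backgrounds replaced, an added setting, normexp gave 2164 higher and 2045 lower. Genes whose sign turned in either normexp setting are marked where they are described. Each slide held 1 array of every group, and replicate numbers match slides, so a gene whose groups do not overlap moved the same way on all 3 slides.

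Cell type markers were examined before the pathways. Of 12 fibroblast markers tested, Prrx1 and Twist2, which encode mesenchymal transcription factors, were called higher, at 0.77 ± 0.12 and 1.73 ± 0.22. Fap, S100a4, Pdgfrb, Col1a2 and Col3a1 were called lower, while Col1a1 at -0.89 ± 0.52 (adjusted p = 0.202) and the surface glycoprotein gene Thy1 at -0.66 ± 0.27 (adjusted p = 0.0775) did not pass. Thy1 was called without shp53 replicate 2 (adjusted p = 0.0396). Epcam, Cdh1, Krt5, Krt14 and Krt8, markers of epithelium, were well above background on all 3 arrays of no group. The same held for Myod1, Myog, Myf5 and Pax7, markers of skeletal muscle. Other members of both lists were measured. Of 7 epithelial and keratinocyte markers tested, 2 were called higher and 1 lower, and of 6 skeletal muscle markers 2 higher and 3 lower. With 1 array left out at a time, the call was lost for Col1a2 and Col3a1 without shp53 replicate 1 or 3 or shp53+RAS replicate 2 or 3 (adjusted p from 0.0547 to 0.0896).

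Markers of macrophages had the lowest median of the 36 lists. Of 14 macrophage and leukocyte markers tested, 12 were called lower and 0 higher, with a median log2 fold change of -6.82, or -6.37 with 6 members at their bounds. By limma, 0 members were higher at an unadjusted p under 0.05 as well. Adgre1, which encodes the macrophage surface receptor F4/80, had log2 signals of 3.21, -1.73 and 3.19 on the shp53 arrays and -7.74, -8.33 and -7.35 on the shp53+RAS arrays, at least 198-fold lower (adjusted p = 1.49e-04), and its second probe gave a log2 fold change of -6.84. Tyrobp, an adaptor of myeloid receptors, read 3.64, -0.83 and 3.67 on the shp53 arrays and -7.79, -8.40 and -7.0 on the shp53+RAS arrays, at least 301-fold lower (adjusted p = 5.88e-05). Shp53 replicate 2 lay well below the other shp53 arrays for both genes and above every shp53+RAS array. Csf1r, the receptor for macrophage colony-stimulating factor, had a log2 fold change of -4.76 ± 0.83 (adjusted p = 0.00148) but -0.30 by another of its 3 probes, and Ptprc, the pan-leukocyte CD45 gene, was at least 5.82-fold lower (adjusted p = 0.00298). The complement gene C1qc was at least 412-fold lower (adjusted p = 4.37e-05), the protease gene Ctss at least 466-fold lower (adjusted p = 2.32e-05), and Ms4a7 at least 598-fold lower (adjusted p = 1.55e-05). Cd14 and Itgam did not pass, with adjusted p-values of 0.843 and 0.971, and a second probe of Itgam gave -2.09. Without shp53 replicate 2, Cd14 was called lower (adjusted p = 0.0117).

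The summed signal of the macrophage list, in multiples of the array's 75th percentile, was 117, 13 and 117 on the shp53 arrays and 10.6, 9.1 and 12.6 on the shp53+RAS arrays. With close pairs averaged, 6 of the 14 were called lower, Csf1r and Ptprc not among them. In bulk RNA, fewer cells of a type and less RNA per cell cannot be told apart. Of other list members, Lyz2, a lysozyme gene, fell, at -6.84 ± 0.83 (adjusted p = 1.61e-04; 1 of 3 shp53+RAS arrays well above background), and Fcer1g, which encodes an Fc receptor subunit, at -7.17 ± 0.94 (adjusted p = 2.65e-04). Outside the list, Lyz1, whose probes may share signal with Lyz2, read 4.43, 1.42 and 3.84 on the shp53 arrays and -3.26, -3.49 and -3.46 on the shp53+RAS arrays, -6.63 ± 0.61 (adjusted p = 2.69e-05), the leukocyte cortactin-like gene Hcls1 fell by 6.05 ± 0.84 (adjusted p = 3.83e-04), and Cd52 was at least 206-fold lower (adjusted p = 5.32e-04). The part of macrophages in the losses of other genes described below was not tested.

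The target of the hairpin and the RAS genes came next. Trp53, which encodes p53, read -3.22, -3.55 and -3.06 on the shp53 arrays and -3.98, -3.43 and -3.44 on the shp53+RAS arrays, with overlapping groups and a difference of -0.34 ± 0.19 (adjusted p = 0.195). Its mean was -0.56 ± 0.20 (SD, n = 3) in RASV12 cells, which lack the hairpin. Hras, whose mouse probe may miss the introduced gene, read 2.05, 2.19 and 2.0 on the shp53 arrays and 1.34, 2.08 and 1.99 on the shp53+RAS arrays and did not pass (adjusted p = 0.417). Nras also overlapped between the groups (adjusted p = 0.533), and its probes disagreed in sign. No probe used here is known to detect the RASV12 vector, and its presence rests on the labels.

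Most genes of RAS-ERK output and feedback were higher in shp53+RAS cells. Of 30 members tested, 18 were called higher and 3 lower, with a median log2 fold change of 0.92. Fosl1, which encodes FRA1, a partner of JUN in the AP-1 transcription factor, had log2 signals of -2.02, -1.32 and -2.13 on the shp53 arrays and 1.29, 1.56 and 1.43 on the shp53+RAS arrays. Its groups lay more than 2 log2 units apart, and the log2 fold change was 3.25 ± 0.22 (adjusted p = 3.64e-06). Etv1 and Etv4, ETS factors induced through ERK, rose by 3.53 ± 0.38 (adjusted p = 7.89e-05) and 1.75 ± 0.19 (adjusted p = 6.84e-05). Fosb rose by 1.18 ± 0.12 (adjusted p = 4.36e-05). Myc, the growth-promoting transcription factor, read -0.01, 0.50 and 0.17 on the shp53 arrays and 1.06, 1.58 and 1.68 on the shp53+RAS arrays and rose by 1.22 ± 0.27 (adjusted p = 0.0054), and Ccnd1, the cyclin D1 gene that links ERK to the cell cycle, rose by 0.68 ± 0.17 (adjusted p = 0.00995). Hmga2, an architectural chromatin gene of embryonic and transformed cells, rose by 2.03 ± 0.26 (adjusted p = 2.15e-04), and its relative Hmga1 by 2.12 ± 0.20 (adjusted p = 2.71e-05), with its 3 probes from 0.78 to 2.87.

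The brakes of the pathway split. Dusp6, the phosphatase that inactivates ERK, read 2.55, 1.86 and 2.62 on the shp53 arrays and 5.0, 4.2 and 4.27 on the shp53+RAS arrays and rose by 2.15 ± 0.27 (adjusted p = 1.90e-04). Spry4, a Sprouty inhibitor of RAS-ERK signalling, rose by 2.07 ± 0.35 (adjusted p = 0.00115), and the 3 Spred genes tested, which encode Sprouty-related inhibitors, were all called higher. Its relative Spry1 fell by 1.33 ± 0.35 (adjusted p = 0.0131). The immediate early genes Egr2 and Fos were the other members called lower. Egr2 read 0.27, 0.96 and 0.26 on the shp53 arrays and -1.66, -2.68 and -2.84 on the shp53+RAS arrays, without overlap, and its log2 fold change was -2.89 ± 0.31 (adjusted p = 6.82e-05). Phlda1, a gene of ERK output, rose by 2.28 ± 0.31 (adjusted p = 3.20e-04). Leaving out single arrays ended the call of Spry1 and Fos without shp53 replicate 1 or 3 (adjusted p from 0.0508 to 0.0543). Spry1, Fos, Myc and Ccnd1 were among the members not called with close pairs averaged, where the list had 13 members higher and 1 lower. Egr1, Dusp4, Dusp5, Spry2, Etv5, Plaur, Epha2, Ephb2 and Sh2b3 were not called.

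**Figure D1:**
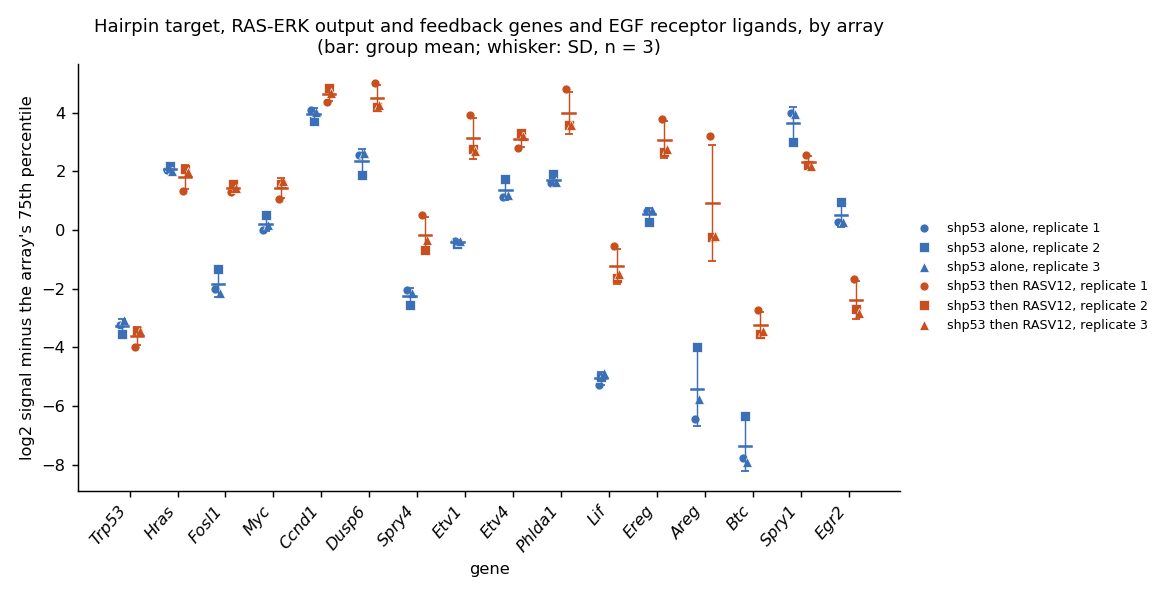
Log2 signal of Trp53, Hras and genes of the RAS-ERK pathway on each of the 6 arrays (vertical axis, log2 signal less the array's 75th percentile; symbols are arrays, horizontal bars the mean and whiskers the SD of 3 arrays). Trp53 and Hras overlap between the groups, Fosl1, Etv1 and Lif lie apart upward, and Egr2 lies apart downward.

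The list of the EGF receptor family and its ligands, growth factors that transformed cells can use to stimulate themselves, had 5 of 11 members called higher, all of them ligands, and Nrg1 alone called lower. The shares were 45.5% and 9.09%, beside 17.2% and 20.2% of all genes. Areg, the amphiregulin gene, read -6.45, -3.98 and -5.76 on the shp53 arrays and 3.21, -0.23 and -0.19 on the shp53+RAS arrays. All 3 shp53+RAS values lay above the shp53 values, replicate 1 highest, and the log2 fold change was 6.33 ± 1.05 (adjusted p = 0.00111; 2 of 3 shp53 arrays well above background). Ereg, the epiregulin gene, rose by 2.54 ± 0.33 (adjusted p = 2.25e-04), Hbegf, the heparin-binding EGF gene, by 0.71 ± 0.13 (adjusted p = 0.00227), and Btc, the betacellulin gene, was at least 7.66-fold higher (adjusted p = 5.55e-05) but -0.10 under normexp. Nrg2 rose by 0.97 ± 0.34 (adjusted p = 0.0458; 2 of 3 shp53 arrays well above background), against -0.70 under normexp, and Nrg1, a ligand of the ERBB3 and ERBB4 receptors, fell by 2.38 ± 0.36 (adjusted p = 5.83e-04). The receptors Egfr and Erbb2 were not called, and Erbb3 and Erbb4 were well above background on all 3 arrays of no group. A single array dropped from the fit ended the call of Nrg2 without shp53 replicate 2 or 3 or shp53+RAS replicate 1, 2 or 3 (adjusted p from 0.0594 to 0.125). Nrg2 and Hbegf were not called with close pairs averaged.

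Cytokines and their receptors had 9 of 28 members called higher and 8 lower, 32.1% and 28.6% beside 17.2% and 20.2% of all genes. Csf2, which encodes the granulocyte and macrophage growth factor GM-CSF, read -7.67, -8.34 and -7.66 on the shp53 arrays and 1.1, -0.45 and -0.25 on the shp53+RAS arrays. No shp53 array measured it and all 3 shp53+RAS arrays did, so it was at least 79.7-fold higher (adjusted p = 1.22e-05). Lif, the leukaemia inhibitory factor gene, read -5.29, -5.02 and -4.86 on the shp53 arrays and -0.54, -1.64 and -1.5 on the shp53+RAS arrays and rose by 3.83 ± 0.26 (adjusted p = 4.06e-06). Il11, a cytokine of the same receptor family, rose by 3.67 ± 0.41 (adjusted p = 9.91e-05). Il6 read 2.08, -0.49 and 2.08 on the shp53 arrays and 3.89, 3.30 and 3.21 on the shp53+RAS arrays and rose by 2.24 ± 0.62 (adjusted p = 0.0171), with shp53 replicate 2 the lowest array. Il6st, the gp130 receptor subunit that LIF, IL-11 and IL-6 share, fell by 1.88 ± 0.19 (adjusted p = 5.46e-05). Il6 was not called in a fit of the 2 groups alone (adjusted p = 0.0543) or with close pairs averaged.

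Chemokines, the small proteins that attract leukocytes, moved in both directions, 7 of 24 higher and 8 lower. The shares were 29.2% and 33.3%, beside 17.2% and 20.2% of all genes. Ccl2 and Ccl7, which attract monocytes, read 4.95, 3.42 and 4.98 against 7.63, 7.35 and 7.81 and 4.38, 3.52 and 4.52 against 6.31, 6.30 and 6.59 in the order shp53 against shp53+RAS, and rose by 3.15 ± 0.36 (adjusted p = 9.96e-05) and 2.26 ± 0.23 (adjusted p = 4.59e-05). Cxcl1, which attracts neutrophils, rose by 3.79 ± 0.55 (adjusted p = 4.84e-04). Ccl11, the eotaxin gene, read -4.53, -4.03 and -4.67 on the shp53 arrays and 2.48, 1.05 and 0.97 on the shp53+RAS arrays and rose by 5.91 ± 0.39 (adjusted p = 3.72e-06). Ccl5 rose by 6.20 ± 1.19 (adjusted p = 0.00269), but was not called with close pairs averaged. Its SD was 0.03 in shp53 cells, 0.13 in shp53+RAS cells and 3.30 in RASV12 cells, which share in the standard error. On the other side, Cxcl14 had log2 signals of 4.83, 3.96 and 4.87 on the shp53 arrays and -5.15, -5.41 and -5.80 on the shp53+RAS arrays and fell by 10.00 ± 0.44 (adjusted p = 2.89e-07; 2 of 3 shp53+RAS arrays well above background). Ppbp, the platelet basic protein gene, was at least 44.9-fold lower (adjusted p = 1.02e-07), and Cxcl15 at least 22.7-fold lower (adjusted p = 1.71e-06). Pf4, a chemokine of platelets and macrophages, read 2.69, -2.02 and 2.74 on the shp53 arrays and -8.26, -8.71 and -7.78 on the shp53+RAS arrays and was at least 148-fold lower (adjusted p = 7.60e-05). Its shp53 values had the order of the macrophage markers, replicate 2 lowest.

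Several further genes were named by the size of their rise or bound. Lcn2, which encodes the iron-sequestering protein lipocalin 2, read -2.57, -4.31 and -2.52 on the shp53 arrays and 6.28, 4.37 and 4.56 on the shp53+RAS arrays and rose by 8.2 ± 0.63 (adjusted p = 9.25e-06). Saa3 and Saa1, serum amyloid A genes whose probes may share signal, read 1.23, -4.09 and 1.25 against 7.34, 7.01 and 7.31 and -0.16, -2.11 and -0.26 against 5.26, 4.77 and 5.06 in the same order. Both had their lowest value on shp53 replicate 2, and rose by 7.76 ± 1.12 (adjusted p = 4.66e-04) and 5.87 ± 0.43 (adjusted p = 6.51e-06). S100a8, a partner in the calprotectin complex of inflamed tissue, read -6.54, -8.49 and -8.50 on the shp53 arrays and 3.41, 0.75 and 0.66 on the shp53+RAS arrays and was at least 221-fold higher (adjusted p = 1.92e-05). Upp1, which encodes the pyrimidine salvage enzyme uridine phosphorylase, read -4.44, -4.43 and -4.54 on the shp53 arrays and 2.77, 2.23 and 2.61 on the shp53+RAS arrays. The log2 fold change was 7.01 ± 0.21 (adjusted p = 4.76e-08), while a second probe of the gene gave 3.45.

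Matrix proteases moved in both directions. Of 28 tested, 8 were called higher and 13 lower, 28.6% and 46.4% beside 17.2% and 20.2% of all genes. Those called higher were Mmp3, Mmp10, Mmp1a, Mmp1b, Mmp9, Mmp19, Ctsl and Plau, and the lower side held ADAM and ADAMTS genes, Mmp11, Mmp14, Mmp17, Mmp23, Ctsk and Plat. Mmp3, stromelysin 1, read 2.67, 0.67 and 2.64 on the shp53 arrays and 8.04, 7.19 and 7.75 on the shp53+RAS arrays and rose by 5.67 ± 0.50 (adjusted p = 2.09e-05). Mmp10, stromelysin 2, read -3.32, -3.98 and -3.44 on the shp53 arrays and 4.39, 2.79 and 2.73 on the shp53+RAS arrays and rose by 6.88 ± 0.44 (adjusted p = 3.03e-06). The interstitial collagenase genes Mmp1a and Mmp1b, close copies whose probes can share signal, were at least 43.2-fold higher (adjusted p = 8.31e-05) and higher by 5.16 ± 0.66 (adjusted p = 2.17e-04; 2 of 3 shp53 arrays well above background). Mmp9, which cuts denatured collagen and basement membrane, read -4.97, -5.20 and -5.08 on the shp53 arrays and 3.38, 2.63 and 2.48 on the shp53+RAS arrays. Every array of shp53+RAS exceeded every shp53 array by more than 7 log2 units, and the log2 fold change was 7.91 ± 0.42 (adjusted p = 1.03e-06).

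Mmp3, Mmp10, Mmp1a and Mmp1b lie near each other on chromosome 9, and their promoters are shown because all 4 carry a letter match to the AP-1 motif, the kind of site that FOS and JUN proteins bind. The stretches are the 250 bases before the gene start from RefSeq (GRCm38.p6), at chr9:7445572-7445821 on the plus strand, chr9:7502092-7502341 on the plus strand, chr9:7463891-7464140 on the plus strand and chr9:7388027-7388276 on the minus strand. They run 5′ to 3′ along the gene, and capitals mark TGANTCA, which reads the same on both strands.
Mmp3: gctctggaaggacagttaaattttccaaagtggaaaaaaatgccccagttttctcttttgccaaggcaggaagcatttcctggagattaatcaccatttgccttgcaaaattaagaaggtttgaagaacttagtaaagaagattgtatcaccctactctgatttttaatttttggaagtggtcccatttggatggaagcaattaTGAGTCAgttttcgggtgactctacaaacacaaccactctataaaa
Mmp10: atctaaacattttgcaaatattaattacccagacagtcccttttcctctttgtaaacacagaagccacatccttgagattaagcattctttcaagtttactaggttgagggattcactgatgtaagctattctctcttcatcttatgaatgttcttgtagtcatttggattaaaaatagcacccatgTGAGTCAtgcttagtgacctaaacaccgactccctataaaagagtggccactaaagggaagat
Mmp1a: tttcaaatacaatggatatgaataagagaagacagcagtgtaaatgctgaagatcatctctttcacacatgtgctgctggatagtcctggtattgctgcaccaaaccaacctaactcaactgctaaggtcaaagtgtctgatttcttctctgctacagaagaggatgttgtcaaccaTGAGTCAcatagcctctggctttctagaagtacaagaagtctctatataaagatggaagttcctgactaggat
Mmp1b: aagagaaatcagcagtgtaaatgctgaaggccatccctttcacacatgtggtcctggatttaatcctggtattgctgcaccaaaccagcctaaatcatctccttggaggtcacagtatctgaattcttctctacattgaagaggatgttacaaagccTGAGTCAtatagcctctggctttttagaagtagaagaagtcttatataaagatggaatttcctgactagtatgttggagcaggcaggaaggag
The first base of the match stood 46, 63, 73 and 93 bases before the start, in that order. A match was present in 4 of the 5 called-higher protease genes with a promoter in the table (80%) and in 4 of 13 other tested protease genes (30.8%). The first 4 are the neighbouring genes shown here, with Mmp1a and Mmp1b close copies, so they do not count as independent cases. Among all 27025 genes in the table the share was 7.82%, among tested genes called higher 7.31% and among those called lower 6.83%. Of RAS-ERK members called higher, 1 of 11 with a promoter held it. The match describes letters in these windows and does not show binding.

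Of 16 protease inhibitors tested, 8 were called lower, with a median log2 fold change of -1.01, and Serpinb2 alone called higher, at 2.37 ± 0.56 (adjusted p = 0.0083). Timp3, a matrix-bound inhibitor of metalloproteases, read 6.98, 5.19 and 6.81 on the shp53 arrays and 1.99, 2.33 and 2.20 on the shp53+RAS arrays and fell by 4.15 ± 0.38 (adjusted p = 2.79e-05). Serpinb9, Tfpi and the collagen chaperone gene Serpinh1 fell, at -2.76 ± 0.30, -1.27 ± 0.19 and -1.24 ± 0.15. Among the proteases on the lower side, the collagen-degrading cathepsin Ctsk fell, at -3.49 ± 0.30 (adjusted p = 1.69e-05), and the aggrecanase Adamts5 at -5.42 ± 0.37 (adjusted p = 4.34e-06; 2 of 3 shp53+RAS arrays well above background), with a second probe at -7.17. Serpinb2 was not called with close pairs averaged, where 6 inhibitors were lower and 0 higher.

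**Figure D2:**
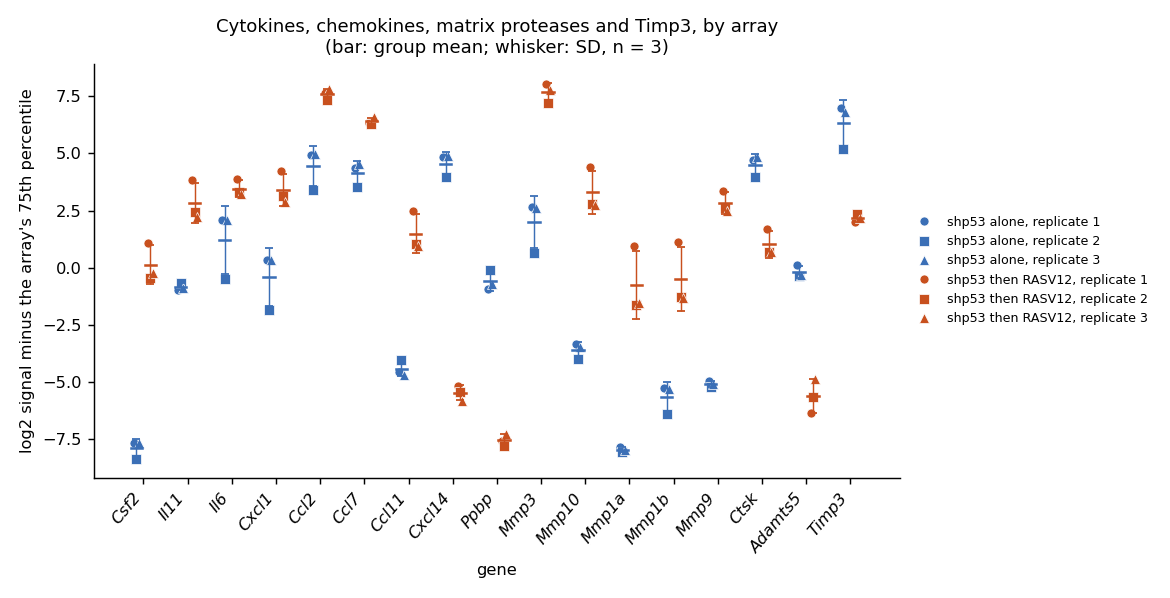
Log2 signal of genes for secreted proteins on each of the 6 arrays (vertical axis, log2 signal less the array's 75th percentile; symbols are arrays, horizontal bars the mean and whiskers the SD of 3 arrays). Csf2, Ccl11, Mmp3, Mmp10, Mmp1a and Mmp9 lie higher on the shp53+RAS arrays, and Cxcl14, Ppbp, Ctsk, Adamts5 and Timp3 lower. Values under the lowest signal well above background were not measured reliably.

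Structural matrix genes were called lower far more often than higher. Of 19 collagen chains tested, 15 were called lower and 0 higher, with a median log2 fold change of -1.83. Of 43 genes for elastic fibres, proteoglycans and matrix glycoproteins, 31 were called lower and 0 higher, with a median of -1.93. At an unadjusted p under 0.05 limma gave 0 collagen chains and 1 of the other matrix genes as higher. With close pairs averaged, 8 and 19 were called lower. Col8a1, a short-chain collagen, read 3.20, 2.77 and 3.09 on the shp53 arrays and -2.07, -0.79 and -0.83 on the shp53+RAS arrays and fell, at -4.25 ± 0.32 (adjusted p = 8.65e-06), and Col8a2 fell, at -4.99 ± 0.47 (adjusted p = 3.22e-05). Col5a2 and Col11a1, chains of the fibrils that regulate collagen I fibre width, fell, at -3.54 ± 0.31 (adjusted p = 2.02e-05) and -3.45 ± 0.29 (adjusted p = 1.50e-05). The main fibrillar chain Col1a1 was not called, and Col6a3, Col7a1 and Col18a1 were not called either.

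Ogn, the gene of the small leucine-rich proteoglycan osteoglycin, read 4.28, 4.68 and 4.37 on the shp53 arrays and -2.41, -3.63 and -3.35 on the shp53+RAS arrays and fell, at -7.57 ± 0.54 (adjusted p = 5.53e-06), and Aspn, a relative in that family, fell, at -6.31 ± 0.96 (adjusted p = 6.35e-04). Of other family members in the list, Lum, Fmod and Omd were called lower and Dcn was not called. Podn, the podocan gene, fell by 7.04 ± 0.74 (adjusted p = 6.58e-05). Ccdc80, a secreted matrix protein, read 5.50, 5.07 and 5.43 on the shp53 arrays and -0.42, -0.81 and -0.78 on the shp53+RAS arrays, with differences among replicates under 1 log2 unit, and fell by 6.0 ± 0.26 (adjusted p = 2.51e-07). Elastin (Eln) and its assembly partners fibulin 5 (Fbln5) and fibrillin 1 (Fbn1) fell, at -4.73 ± 0.43, -3.55 ± 0.24 and -2.59 ± 0.19, and Lox, the enzyme that crosslinks collagen and elastin, at -2.87 ± 0.23. Postn, the periostin gene, fell by 5.17 ± 0.83 (adjusted p = 9.22e-04) but was not called with close pairs averaged. Mgp, which encodes an inhibitor of calcification, read 7.03, 7.20 and 7.06 on the shp53 arrays and 2.31, 1.75 and 1.71 on the shp53+RAS arrays and fell by 5.17 ± 0.66 (adjusted p = 2.27e-04). Fn1, Tnc, Sparc and Nid1 were not called.

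Contractile and actin cytoskeleton genes had 19 of 28 members called lower, a median of -1.47, and Ankrd1 alone called higher, at 1.80 ± 0.54 (adjusted p = 0.0243). Actg2, an actin of smooth muscle, read 4.01, 5.18 and 4.04 on the shp53 arrays and -3.01, -2.26 and -2.31 on the shp53+RAS arrays, which leaves a gap of more than 6 log2 units, and fell by 6.94 ± 0.54 (adjusted p = 9.70e-06). Acta2, the smooth muscle actin of stress fibres and myofibroblasts, read 7.5, 7.37 and 7.49 on the shp53 arrays and 3.18, 4.88 and 4.82 on the shp53+RAS arrays and fell by 3.16 ± 0.41 (adjusted p = 2.23e-04). Cnn1, the calponin gene, fell, at -3.50 ± 0.36 (adjusted p = 5.95e-05), and Mylk, the myosin light chain kinase gene, at -5.89 ± 0.52 (adjusted p = 2.06e-05; 1 of 3 shp53+RAS arrays well above background). Myocd, the coactivator that drives smooth muscle genes with serum response factor, was at least 5.84-fold lower (adjusted p = 7.63e-06), whereas Srf itself was not called. Lmod1 fell by 3.64 ± 0.34 (adjusted p = 3.09e-05; 2 of 3 shp53+RAS arrays well above background). The call was lost with a single array left out for Ankrd1 without shp53 replicate 1 or 3 or shp53+RAS replicate 2 or 3 (adjusted p from 0.0656 to 0.0915).

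Integrins, the receptors that tie cells to the matrix, had 7 of 18 subunits called lower and 4 higher. The shares were 38.9% and 22.2%, beside 20.2% and 17.2% of all genes. Itga11, a collagen receptor subunit, read 5.93, 5.67 and 5.91 on the shp53 arrays and 0.97, -0.45 and -0.62 on the shp53+RAS arrays and fell by 5.87 ± 0.70 (adjusted p = 1.39e-04). Itgb1, the common beta subunit of most matrix receptors, fell, at -1.23 ± 0.13 (adjusted p = 7.87e-05), and Itga7, a laminin receptor subunit, at -2.32 ± 0.34 (adjusted p = 5.11e-04). Itgbl1, an integrin-like gene kept in this list, fell by 4.11 ± 0.42 (adjusted p = 5.36e-05). The 4 subunits called higher were Itga2, at least 2-fold higher (adjusted p = 0.0139; 2 of 3 shp53+RAS arrays well above background), Itga3 at 1.38 ± 0.30 (adjusted p = 0.00481), Itga4 at 1.90 ± 0.30 (adjusted p = 7.74e-04) and Itgb7 at 2.27 ± 0.38 (adjusted p = 0.00108; 2 of 3 shp53 arrays well above background), though under normexp Itga2 was -0.67 and Itgb7 -0.26. In fits that left out 1 array, the threshold was missed by Itga2 without shp53 replicate 3 (adjusted p = 0.0582). Itga2 and Itga3 were also not called with close pairs averaged.

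**Figure D3:**
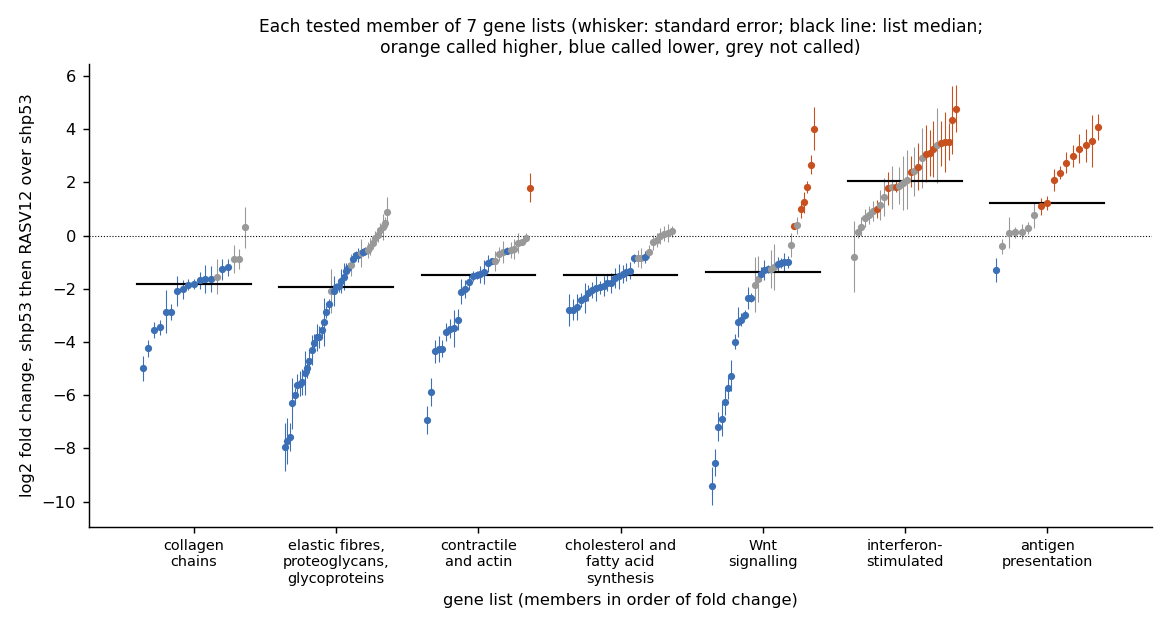
Log2 fold change of every tested member of 7 gene lists (vertical axis, shp53+RAS over shp53, whiskers are the standard error; members stand in order of fold change along the horizontal axis, and colour marks the call). Collagen chains, the other matrix genes and contractile genes lie mostly below 0, with 0, 0 and 1 members called higher.

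The list of TGF beta and BMP signalling, a pathway that drives matrix production and myofibroblast genes, holds ligands, receptors, antagonists, Smads and target genes. Of its 37 members tested, 16 were called lower and 5 higher, and those lower included antagonists such as Fst and Nog as well as the receptors Tgfbr1, Tgfbr2 and Bmpr1a. The ligand genes Tgfb3 and Tgfb2 fell, at -3.10 ± 0.26 (adjusted p = 1.64e-05) and -3.32 ± 0.59 (adjusted p = 0.00165), while Tgfb1 rose by 0.69 ± 0.13 (adjusted p = 0.00258). Bmp2 read -4.67, -4.29 and -4.85 on the shp53 arrays and 3.32, 1.28 and 1.38 on the shp53+RAS arrays and rose by 6.60 ± 0.56 (adjusted p = 1.81e-05), and Bmp4 fell by 2.60 ± 0.44 (adjusted p = 0.00119). The BMP antagonist Grem1 and the BMP target Id1 rose by 1.71 ± 0.30 and 1.21 ± 0.23, the activin subunit Inhbb rose by 1.11 ± 0.35, and the activin antagonist Fst fell by 2.67 ± 0.42 (adjusted p = 7.90e-04). The receptor gene Bmpr1b fell by 2.09 ± 0.34 (adjusted p = 9.09e-04). Without shp53+RAS replicate 2 or 3, 9 and 10 members were called lower, and with close pairs averaged 3 were lower and 2 higher. With 1 array left out at a time, the call was lost for Inhbb without shp53 replicate 1 or 2 or shp53+RAS replicate 1 (adjusted p from 0.0646 to 0.0959). Tgfb1, Tgfb2, Bmp4, Fst and Id1 were not called with close pairs averaged.

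**Figure D4:**
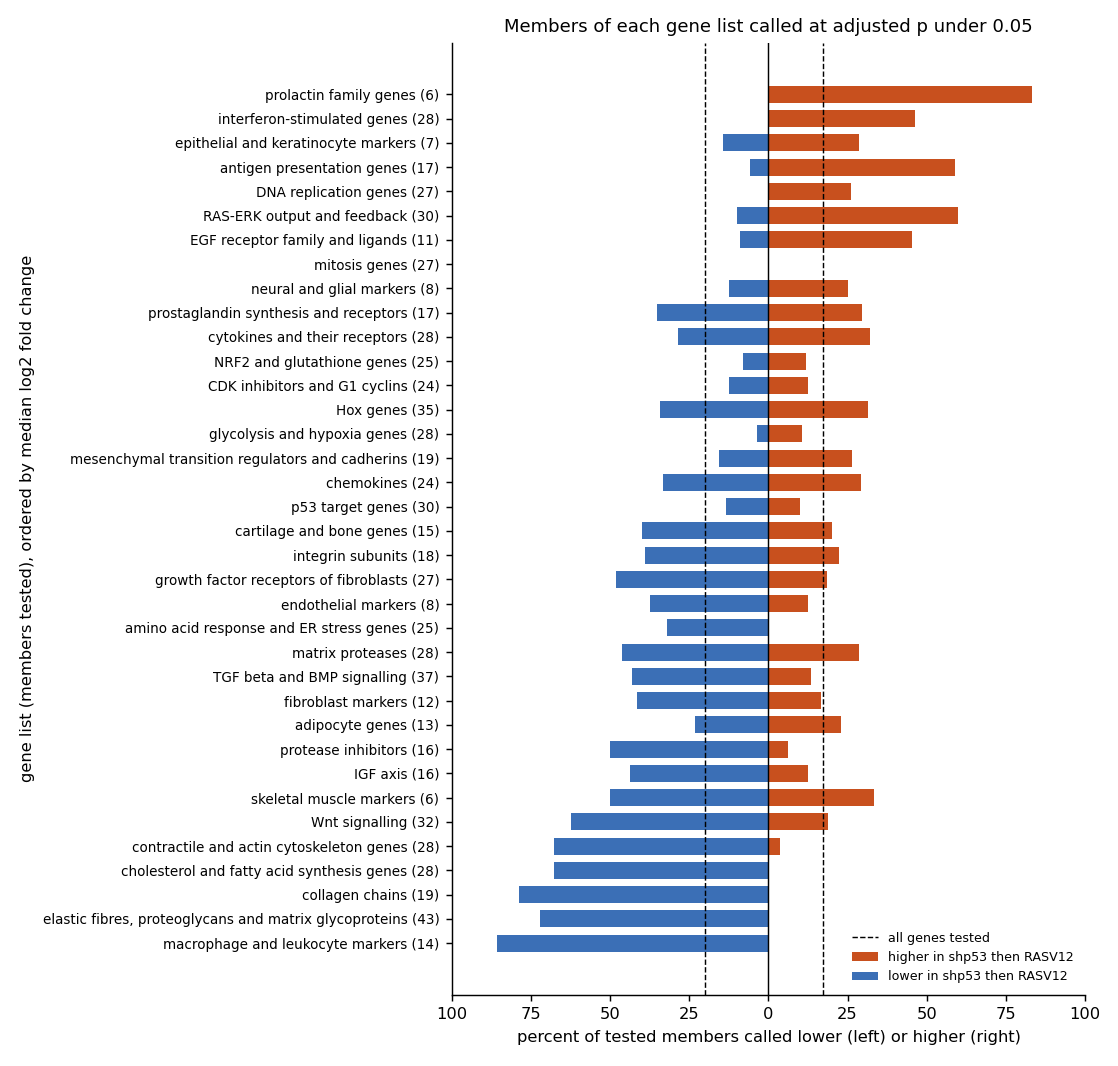
Percent of tested members of each of the 36 gene lists called lower (bars to the left) or higher (bars to the right) in shp53+RAS cells, ordered by the median log2 fold change. Dashed lines mark the shares of all tested genes, 20.2% lower and 17.2% higher, and the number of members tested is in parentheses.

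Wnt signalling genes were lower for 20 of 32 members and higher for 6, with a median of -1.37. The shares were 62.5% and 18.8%, beside 20.2% and 17.2% of all genes. Of the R-spondin agonists tested, Rspo2 fell, at -6.25 ± 0.48 (adjusted p = 9.36e-06) and Rspo3 at -2.34 ± 0.17 (adjusted p = 5.95e-06), and Rspo1 was not called. Their receptor Lgr5 read 3.64, 1.14 and 3.58 on the shp53 arrays and -7.46, -5.97 and -6.48 on the shp53+RAS arrays and fell by 9.42 ± 0.73 (adjusted p = 9.32e-06; 1 of 3 shp53+RAS arrays well above background). Wnt4 was at least 50.1-fold lower (adjusted p = 8.63e-06), with a second probe at -2.63, Wnt9a fell, at -3.99 ± 0.29 (adjusted p = 6.27e-06), and Nkd1, a feedback inhibitor of the pathway, at -6.92 ± 0.62 (adjusted p = 2.18e-05; 1 of 3 shp53+RAS arrays well above background). The matricellular genes Ccn5 and Ccn4, both named as Wnt-induced, fell, at -8.54 ± 0.50 (adjusted p = 1.66e-06; 2 of 3 shp53+RAS arrays well above background) and -2.97 ± 0.18 (adjusted p = 2.02e-06). Wnt5a, a ligand of the branch that does not act through beta-catenin, rose by 1.83 ± 0.21 (adjusted p = 1.92e-04), alongside Wnt5b, Dkk1, Lef1, Tcf7 and Fzd7. The fit of Wnt5a lacked replicate 3 of the RASV12-first cells, whose spot was left out as non-uniform or outlying. Without shp53 replicate 1 or shp53+RAS replicate 1, 3 members were called higher, and with close pairs averaged 14 were lower and 2 higher.

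The IGF axis, through which fibroblasts regulate insulin-like growth factor, was lower for 7 of 16 members, 43.8% beside 20.2% of all genes. Igfbp2, a binding protein of IGFs, read 3.25, 3.89 and 3.25 on the shp53 arrays and -2.91, -4.36 and -4.45 on the shp53+RAS arrays and fell by 7.37 ± 0.41 (adjusted p = 1.20e-06). Igf1 read 2.57, 0.12 and 2.54 on the shp53 arrays and -2.74, -3.84 and -3.99 on the shp53+RAS arrays and fell by 5.27 ± 0.59 (adjusted p = 8.94e-05), and its lowest shp53 value was on replicate 2, as for the macrophage markers. The 4 probes of Igf1 ranged from -5.33 to -3.04. Igfbp6 and Igfbp7 fell, at -2.24 ± 0.29 and -1.48 ± 0.19. Igfbp5 and Igf2bp1 were the 2 members called higher, at 2.48 ± 0.46 (adjusted p = 0.00222) and 0.96 ± 0.26 (adjusted p = 0.0165). Leaving out single arrays ended the call of Igf2bp1 without shp53 replicate 1 or 3 or shp53+RAS replicate 2 or 3 (adjusted p from 0.0532 to 0.0693). Igf2, Igf1r and Insr were not called.

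Growth factors and receptors of fibroblasts had 13 of 27 members called lower and 5 higher, 48.1% and 18.5% beside 20.2% and 17.2% of all genes. Flt1, a VEGF receptor, fell, at -4.22 ± 0.27 (adjusted p = 3.03e-06), the platelet-derived growth factor Pdgfb at -3.44 ± 0.42 (adjusted p = 1.58e-04), and Gas6, the ligand of the AXL receptor, at -4.55 ± 0.58 (adjusted p = 2.18e-04). Fgf5 fell by 4.88 ± 0.49 (adjusted p = 4.70e-05; 1 of 3 shp53+RAS arrays well above background). Hgf, the hepatocyte growth factor gene, read -3.25, -2.29 and -3.40 on the shp53 arrays and 0.10, -1.05 and -1.05 on the shp53+RAS arrays and rose by 2.31 ± 0.43 (adjusted p = 0.00228), alongside Fgf1, Fgf7, Bdnf and Vegfc. Hgf was not called with close pairs averaged. Pdgfra, Fgfr1, Met and Axl were not called.

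Interferon-stimulated genes, which cells switch on to resist viruses, were higher for 13 of 28 members and lower for 0, with a median log2 fold change of 2.04. The list's median level was 0.71, 0.03 and 0.82 on the shp53 arrays and 2.85, 2.70 and 2.61 on the shp53+RAS arrays. The arrays did not overlap, upward, in 25 of the 28 members, against 25.9% of all genes. At an unadjusted p under 0.05 limma gave 20 as higher and 0 as lower. Shp53 replicate 2, the lowest array of this list, was also the shp53 array with the lowest macrophage markers, whose part was not tested. Ifit2, an antiviral RNA-binding protein, read -1.85, -2.37 and -1.96 on the shp53 arrays and 0.03, -0.27 and -0.42 on the shp53+RAS arrays and rose by 1.84 ± 0.20 (adjusted p = 6.93e-05). Oasl1 and Iigp1, an oligoadenylate synthetase relative and an immunity-related GTPase, rose by 4.78 ± 0.89 (adjusted p = 0.00224) and 3.53 ± 0.69 (adjusted p = 0.00285). Ifih1, the RNA sensor MDA5, rose by 2.41 ± 0.58 (adjusted p = 0.00924), and Irf7, the factor that amplifies interferon genes, read -1.88, -3.09 and -2.10 on the shp53 arrays and 0.84, 1.38 and 1.12 on the shp53+RAS arrays and rose by 3.47 ± 0.85 (adjusted p = 0.00979).

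The number of interferon-stimulated genes called depended on the arrays in the fit. It was 8 without shp53 replicate 1 or 3, 6 without shp53 replicate 2 or shp53+RAS replicate 1 or 2, and 5 without shp53+RAS replicate 3. It was 3 with close pairs averaged, when Irf7 and Ifih1 were not called. A fit of the 2 groups alone, which leaves out the spread of the other groups, gave 24. Without the arrays that stand apart, 25 were higher and 1 was lower. Promoters of Igtp, another immunity-related GTPase gene, and Ifit3, a relative of Ifit2, are shown because both were called higher and carry a letter match. The match is to the interferon-stimulated response element, the motif of IRF and STAT factors. They are the 250 bases before the start from RefSeq (GRCm38.p6), at chr11:58199306-58199555 and chr19:34583279-34583528, both on the plus strand. Capitals mark GAAA repeated after 2 bases of any kind or, for the other strand, the same with TTTC.
Igtp: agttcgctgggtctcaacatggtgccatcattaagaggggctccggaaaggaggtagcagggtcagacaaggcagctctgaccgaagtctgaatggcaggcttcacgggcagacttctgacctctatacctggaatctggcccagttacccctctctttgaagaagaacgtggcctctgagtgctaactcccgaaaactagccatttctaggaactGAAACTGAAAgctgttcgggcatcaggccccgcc
Ifit3: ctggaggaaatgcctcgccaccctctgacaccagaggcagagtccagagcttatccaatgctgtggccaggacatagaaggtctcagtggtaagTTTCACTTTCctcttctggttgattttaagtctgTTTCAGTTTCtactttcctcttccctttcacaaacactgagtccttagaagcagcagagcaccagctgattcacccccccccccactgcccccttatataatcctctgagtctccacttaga
The match began 34 bases before the start of Igtp and 156 and 122 bases before that of Ifit3. It was present in 6 of 11 called-higher members with a promoter (54.5%) and in 5 of 12 members not called (41.7%). Among all genes in the table the share was 3.46%, and among all tested genes 3.21%. As with AP-1, a match describes letters in these windows and does not show binding.

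Antigen presentation genes, which interferon also raises, had 10 of 17 members called higher, with a median of 1.21, and 7 with close pairs averaged. H2-K1 and H2-D1, the classical class I heavy chains, read 4.05, 2.41 and 4.11 against 6.58, 6.47 and 6.52 and 3.03, 1.64 and 3.08 against 5.41, 5.26 and 5.31 in the order shp53 against shp53+RAS, and rose by 3.0 ± 0.42 (adjusted p = 4.03e-04) and 2.74 ± 0.39 (adjusted p = 4.10e-04). H2-Q5, a class I gene of the Q region, rose by 7.19 ± 0.33 (adjusted p = 3.48e-07), and class I genes are alike enough that probes can share signal. Tap1, a subunit of the peptide transporter, read -3.34, -3.72 and -3.36 on the shp53 arrays and -1.16, -0.87 and -1.28 on the shp53+RAS arrays and rose by 2.37 ± 0.26 (adjusted p = 7.94e-05), and Psmb8, an immunoproteasome subunit, by 3.27 ± 0.55 (adjusted p = 0.00116). Nlrc5, the transactivator of class I genes, read -1.26, -3.43 and -1.21 on the shp53 arrays and 2.04, 2.24 and 2.05 on the shp53+RAS arrays, with shp53 replicate 2 again lowest, and rose by 4.08 ± 0.49 (adjusted p = 1.51e-04), with a second probe at 1.67. Cd74, the class II invariant chain, was the 1 member called lower, at -1.31 ± 0.45 (adjusted p = 0.0431; 2 of 3 shp53+RAS arrays well above background), with 0.092 where normexp was run with extreme backgrounds replaced. A single array dropped from the fit ended the call of Cd74 without shp53 replicate 1, 2 or 3 or shp53+RAS replicate 1 or 2 (adjusted p from 0.0581 to 0.123).

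Of 30 targets of p53 tested, 3 were called higher and 4 lower, which is 10% and 13.3% of the list beside 17.2% and 20.2% of all genes. Without the arrays that stand apart, 9 were higher and 12 lower, in a setting that called 4928 and 4589 of all 13935 genes. In the fit of all arrays the median log2 fold change was 0.03, the same as over all genes. Cdkn1a, the p21 cell cycle inhibitor, read 2.58, 2.14 and 2.61 on the shp53 arrays and 2.85, 2.69 and 2.88 on the shp53+RAS arrays, without overlap, but its difference of 0.36 ± 0.16 (adjusted p = 0.0938) did not pass. Mdm2, the ligase that degrades p53, also did not pass (adjusted p = 0.31). Ephx1, Btg2, Sesn1 and Tigar fell, at -1.99 ± 0.21, -1.48 ± 0.18, -1.15 ± 0.17 and -0.98 ± 0.19, and Pidd1, Polk and Bax rose by 1.74 ± 0.35, 0.77 ± 0.16 and 0.34 ± 0.12. The call was lost with a single array left out for Bax without shp53 replicate 1, 2 or 3 or shp53+RAS replicate 2 or 3 (adjusted p from 0.061 to 0.14). With close pairs averaged, 0 were higher and 3 lower.

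Of CDK inhibitors and G1 cyclins, 3 of 24 were called higher and 3 lower, under the shares of 17.2% and 20.2% of all genes. Ccnd2, the cyclin D2 gene, read 4.14, 4.19 and 4.12 on the shp53 arrays and 2.72, 3.06 and 3.01 on the shp53+RAS arrays and fell by 1.22 ± 0.18 (adjusted p = 4.87e-04), opposite to Ccnd1. Cdk6 and the retinoblastoma gene Rb1 fell, at -0.68 ± 0.18 and -0.82 ± 0.22, with Cdk6 at 0.048 under normexp with extreme backgrounds replaced, and Rbl1 and E2f1 rose by 1.13 ± 0.38 and 0.66 ± 0.22. Cdkn2a, which encodes the p16 and ARF inhibitors and marks senescence, read 5.50, 5.24 and 5.46 on the shp53 arrays and 6.11, 5.46 and 5.45 on the shp53+RAS arrays with overlap (adjusted p = 0.436), and its probes disagreed in sign. In fits that left out 1 array, the threshold was missed by Cdk6 without shp53 replicate 1 or 3 or shp53+RAS replicate 2 (adjusted p from 0.0593 to 0.0703), Rb1 without shp53 replicate 1 or 3 or shp53+RAS replicate 2 or 3 (adjusted p from 0.055 to 0.0637), and Rbl1 and E2f1 without shp53 replicate 1, 2 or 3 or shp53+RAS replicate 2 or 3 (adjusted p from 0.0658 to 0.129). Without shp53+RAS replicate 1, 8 members were higher and 5 lower, and with close pairs averaged the counts were 0 and 1.

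The 27 mitosis genes tested had 0 members called by limma in either direction, and 2 were higher and 0 lower at an unadjusted p under 0.05. The list's median level was 1.11, 1.63 and 1.17 on the shp53 arrays and 0.26, 2.36 and 2.36 on the shp53+RAS arrays. Shp53+RAS replicate 1 thus had the lowest level of the 6 and the other shp53+RAS arrays the highest. Within slides the median difference was -0.80, 0.96 and 1.30. Top2a, the topoisomerase of dividing cells, read -0.22, 0.43 and -0.28 on the shp53 arrays and -0.77, 1.59 and 1.66 on the shp53+RAS arrays (adjusted p = 0.346). Bub1b, Ttk and Ndc80, genes of the spindle checkpoint and the kinetochore, had adjusted p-values of 0.0854, 0.102 and 0.181. Without shp53+RAS replicate 1, 8 of the 27 were called higher, Top2a, Bub1b, Ttk and Ndc80 among them (adjusted p from 0.0131 to 0.0371), and without the arrays that stand apart all 27. Lmnb1, a nuclear lamina gene that falls in senescence, had the same order, 0.70, 1.30 and 0.78 against -0.0003, 2.40 and 2.36, and did not pass (adjusted p = 0.399, and 0.0126 without shp53+RAS replicate 1).

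DNA replication genes were called higher for 7 of 27 members (25.9%, beside 17.2% of all genes) and lower for 0. At an unadjusted p under 0.05 limma gave 17 as higher and 0 as lower. The list's median level was 0.74, 0.79 and 0.86 against 0.75, 2.10 and 2.16, so that shp53+RAS replicate 1 lay among the shp53 arrays. Cdt1, which licenses replication origins, read 1.53, 1.96 and 1.56 on the shp53 arrays and 3.05, 3.51 and 3.40 on the shp53+RAS arrays and rose by 1.64 ± 0.25 (adjusted p = 7.29e-04). Rfc3, a subunit of the clamp loader, and Lig1, the ligase that joins Okazaki fragments, rose by 1.08 ± 0.24 and 1.2 ± 0.28. The count was 3 or 4 without shp53 replicate 1 or 3 or shp53+RAS replicate 2 or 3, 23 without shp53+RAS replicate 1, 13 with the replicate number as a block and 1 with close pairs averaged.

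**Figure D5:**
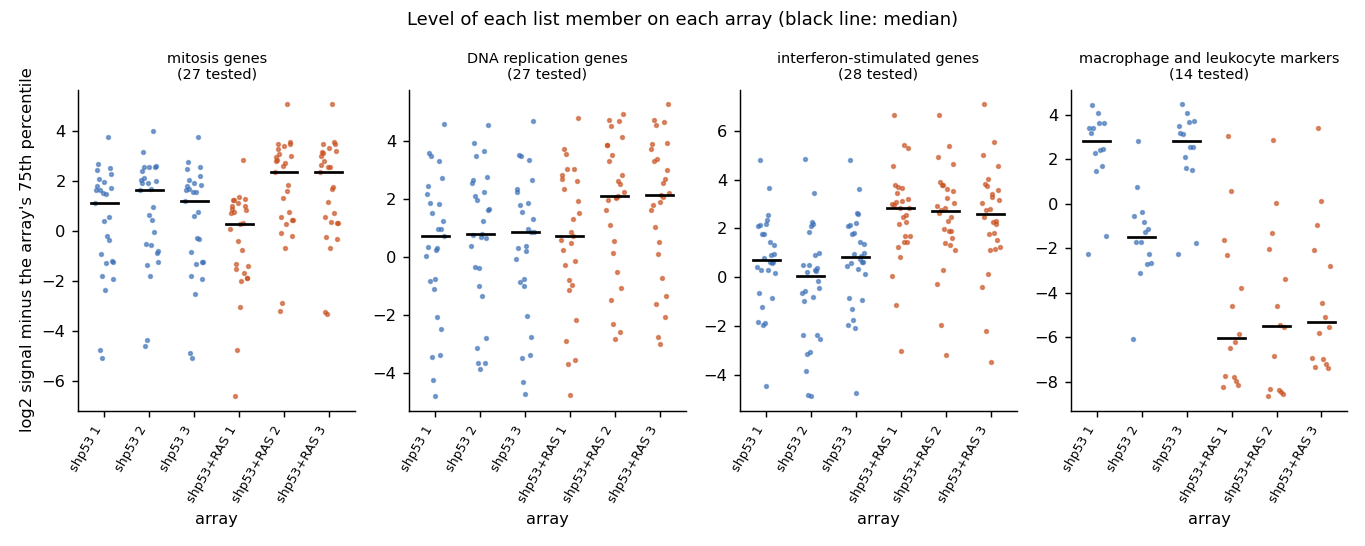
Level of every member of selected gene lists on each of the 6 arrays (vertical axis, log2 signal less the array's 75th percentile; points are genes and black lines the list's median). The mitosis median is 0.26 on shp53+RAS replicate 1 and 2.36 on replicates 2 and 3, and the macrophage median is -1.51 on shp53 replicate 2 and 2.84 on replicates 1 and 3.

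Cholesterol synthesis genes were lower in shp53+RAS cells. Of 28 genes for cholesterol and fatty acid synthesis, 19 were called lower and 0 higher, 21 and 0 by limma at an unadjusted p under 0.05, with a median log2 fold change of -1.49. The members called lower included genes of early and late steps of cholesterol synthesis, among them Hmgcs1, Fdps, Sqle and Dhcr7, and Srebf2, the pathway's transcription factor. Hmgcs1, which makes the precursor of mevalonate, read 4.35, 4.81 and 4.31 on the shp53 arrays and 1.62, 2.30 and 2.24 on the shp53+RAS arrays and fell by 2.44 ± 0.26 (adjusted p = 6.96e-05). Sqle, squalene epoxidase, read 4.22, 4.37 and 4.16 on the shp53 arrays and 0.75, 1.87 and 1.77 on the shp53+RAS arrays and fell by 2.78 ± 0.38 (adjusted p = 3.41e-04). Idi1, which isomerises the isoprene unit, read 3.11, 3.54 and 3.14 on the shp53 arrays and -1.04, 1.27 and 1.18 on the shp53+RAS arrays, with shp53+RAS replicate 1 lowest, and fell by 2.80 ± 0.60 (adjusted p = 0.00473). Msmo1 and Hsd17b7, enzymes of the later steps, fell, at -2.16 ± 0.30 and -1.95 ± 0.24. Of the fatty acid genes, Acly and Fads2 were called lower, while Fasn, Acaca, Scd1, Scd2, Elovl6 and Fads1 were not called. With close pairs averaged, 8 of the 28 were lower, Idi1 not among them.

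Genes of the amino acid response and of ER stress were lower for 8 of 25 members (32%, beside 20.2% of all genes) and higher for 0. At an unadjusted p under 0.05 limma gave 11 as lower and 0 as higher. Trib3, a pseudokinase induced by ATF4, read 4.58, 4.21 and 4.61 on the shp53 arrays and 3.74, 0.96 and 0.65 on the shp53+RAS arrays, so that shp53+RAS replicate 1 lay nearer to the shp53 arrays, and fell by 2.68 ± 0.63 (adjusted p = 0.00814). Slc7a5, an amino acid transporter, and Atf5 fell, at -1.67 ± 0.40 and -1.12 ± 0.28, and Herpud1 at -0.82 ± 0.21, and a second probe of Slc7a5 gave -0.43. With 1 array left out at a time, the call was lost for Herpud1 without shp53+RAS replicate 2 or 3 (adjusted p from 0.0503 to 0.0525). The count was 3 to 5 without shp53 replicate 1 or 3 or shp53+RAS replicate 2 or 3, 20 without the arrays that stand apart and 0 with close pairs averaged.

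Glycolysis and hypoxia genes gave few calls, 3 of 28 higher and 1 lower, under the shares of 17.2% and 20.2% of all genes. Pkm, the pyruvate kinase of glycolysis, Vegfa, the endothelial growth factor, and Adm, adrenomedullin, rose by 0.87 ± 0.18, 1.1 ± 0.26 and 1.5 ± 0.39. Car9, a carbonic anhydrase induced by hypoxia, fell by 1.70 ± 0.33. Leaving out single arrays ended the call of Adm without shp53+RAS replicate 3 (adjusted p = 0.0534). NRF2 and glutathione genes had 3 of 25 higher and 2 lower, 12% and 8%, also under those shares. Sod2, the mitochondrial superoxide dismutase, rose by 1.88 ± 0.27 (adjusted p = 4.43e-04), Srxn1 by 1.02 ± 0.20, and the NRF2 gene Nfe2l2 itself by 0.69 ± 0.21. Gstm2 fell, at -2.63 ± 0.41 (adjusted p = 6.89e-04), and Gpx3 at -2.44 ± 0.80 with 1 shp53 array inside the shp53+RAS range. A single array dropped from the fit ended the call of Nfe2l2 without shp53 replicate 1 or 2 or shp53+RAS replicate 1 (adjusted p from 0.0562 to 0.0753), and Gpx3 without shp53 replicate 1 or 3 or shp53+RAS replicate 2 or 3 (adjusted p from 0.0927 to 0.129). Without shp53 replicate 2, 5 of this list were lower. Pkm, Vegfa, Adm, Car9, Srxn1, Nfe2l2 and Gpx3 were not called with close pairs averaged.

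Hox genes, which record position along the body axis, gave calls both ways. Of 35 tested, 11 were called higher and 12 lower, 31.4% and 34.3% beside 17.2% and 20.2% of all genes. With close pairs averaged the counts were 7 and 7. The 11 higher were Hoxa2 to Hoxa5, Hoxb2 to Hoxb7 and Hoxd3, and the 12 lower were Hoxb9, 6 genes of the Hoxc cluster and Hoxd9 to Hoxd13. Hoxa2 read -3.92, -3.0 and -3.64 on the shp53 arrays and -0.64, -0.70 and -0.83 on the shp53+RAS arrays and rose by 2.80 ± 0.21 (adjusted p = 8.63e-06), and Hoxb5 and Hoxb7 rose by 1.30 ± 0.11 (adjusted p = 1.92e-05) and 1.77 ± 0.20 (adjusted p = 1.02e-04). Hoxa5 rose by 1.59 ± 0.34 (adjusted p = 0.00446) but was not called with close pairs averaged. In the Hoxc cluster, Hoxc8 read -1.81, -1.82 and -1.67 on the shp53 arrays and -5.19, -5.12 and -5.33 on the shp53+RAS arrays and fell by 3.45 ± 0.19 (adjusted p = 1.26e-06; 2 of 3 shp53+RAS arrays well above background), while Hoxc4 and Hoxc6 fell, at -3.16 ± 0.22 (adjusted p = 5.42e-06) and -2.56 ± 0.25 (adjusted p = 3.96e-05). Hoxd13, the last gene of the Hoxd cluster, which patterns the digits, read 0.16, 1.83 and 0.19 on the shp53 arrays and -2.54, -5.66 and -5.09 on the shp53+RAS arrays and fell by 5.16 ± 0.71 (adjusted p = 3.66e-04; 2 of 3 shp53+RAS arrays well above background). The embryos or litters behind each culture are not given, so a difference in their starting cells cannot be told apart from the effect of the vector.

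Cartilage and bone genes had 6 of 15 members lower and 3 higher, 40% and 20% beside 20.2% and 17.2% of all genes. Col10a1, the collagen of hypertrophic cartilage, read 2.76, 2.88 and 2.69 on the shp53 arrays and -8.27, -8.71 and -7.79 on the shp53+RAS arrays and was at least 459.8-fold lower (adjusted p = 3.48e-07). Comp, a cartilage matrix protein, was at least 57.5-fold lower (adjusted p = 1.07e-04), Matn4 fell, at -3.60 ± 0.36 (adjusted p = 4.66e-05), and Msx1, a homeobox gene of limb mesenchyme, at -4.34 ± 0.24 (adjusted p = 1.08e-06; 2 of 3 shp53+RAS arrays well above background). Matn2, Sp7 and Spp1 were higher, and 5 members were higher without shp53 replicate 2. Of mesenchymal transition regulators and cadherins, 5 of 19 were higher (Snai1, Twist2, Prrx1, Cdh6 and Cdh15) and 3 lower. That is 26.3% and 15.8%, beside 17.2% and 20.2% of all genes. The kidney cadherin Cdh6 read -5.03, -4.45 and -5.08 on the shp53 arrays and 1.45, 0.41 and 0.40 on the shp53+RAS arrays and rose by 5.61 ± 0.33 (adjusted p = 1.72e-06), while Cdh3, Cdh11 and Cdh13 were lower, the first 2 at -4.87 ± 0.43 (adjusted p = 2.15e-05; 2 of 3 shp53+RAS arrays well above background) and -1.22 ± 0.13 (adjusted p = 7.68e-05). Vim, Cdh2, Zeb1, Zeb2 and Snai2 were not called.

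Against the other groups of the series, few of these differences set shp53+RAS cells apart from all. Against RASV12 cells 10.3% of genes were called higher and 15.1% lower, and against cells that received RASV12 first 8.01% and 7.45%. In all, 164 genes (1.18%) were called higher in shp53+RAS cells than in each of the 3 other groups, and 191 (1.37%) lower. Of the 12 genes named for the largest rise over shp53 among those measured on all 6 arrays, 0 were called higher against all 3 by limma. Among these 12, 5 genes, Mmp9, H2-Q5, Bmp2, Ccl5 and Mmp3, were also higher than in RASV12 cells, and 6, Prl2c5, Lcn2, Saa3, Upp1, Ccl11 and Saa1, were also higher than in cells that received RASV12 first. For Mmp9 the difference was 3.78 ± 0.42 (adjusted p = 2.53e-04) from RASV12 cells and 0.99 ± 0.42 (adjusted p = 0.154) from RASV12-first cells. For Upp1 the same differences were 0.24 ± 0.21 (adjusted p = 0.435) and 1.01 ± 0.21 (adjusted p = 0.00812). Of the 12 genes named as lowest among those measured on all 6 arrays, Actg2 alone was lower than in all 3, at -3.97 ± 0.54 (adjusted p = 7.66e-04) and -3.51 ± 0.54 (adjusted p = 0.00169) from those groups. Igfbp2, Lyz1, Ccdc80 and Pcsk6 were higher in shp53+RAS than in RASV12-first cells, Igfbp2 by 1.59 ± 0.41 (adjusted p = 0.0253).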

How the data were processed

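RNA from 12 fibroblast samples was measured on 12 1-colour Agilent arrays, 100 ng each per the labels' protocols. Per the file headers, Feature Extraction had subtracted background and removed spatial trends within each array, and the resulting spot intensity was deposited with no step between arrays. Median pixel intensities and flags of 0 or 1, another kind of value, were deposited too. The headers give version 11.5.1.1 and the submitters' processing notes 10.7.3.1. A probe table on the log2 scale (25916 probes) was also deposited by the authors. Set against the arrays, it held log2 signal less the 75th percentile of an array and the median of shp53, within 0.05 in 99.4% of probes.

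Here, 1717 spot values (0.333%) marked non-uniform or outlying were left out, and 0 spots were saturated. Each array had 56.6% to 62.4% of spots well above background, and the number of arrays limits the precision. The log2 processed signal, less its 75th percentile over the 43020 non-control spots, was averaged by probe. Probes had to be well above background on all 3 arrays of a group (23899 of 39429). Gene names came from a RefSeq table through accessions (28324 probes with 1 name, 11105 with none), used for names only. The kept probe with the highest mean stood for a gene, and 506 genes of chromosomes X and Y were left out, which left 13935. Genes were fitted on all 12 arrays with limma 3.58.1 in R 4.3.3, with Benjamini-Hochberg adjustment over all genes. An exact two-sided permutation test of 3 against 3 cannot go below 0.1. The fit was tested on simulated data.

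Members, the 36 gene lists (30 pathway, 6 marker) and the added settings were chosen with earlier results of these data known. Named are the 12 highest and 12 lowest called genes without overlap that were measured on all 6 arrays, 8 by bound each way, the 4 smallest adjusted p of each list and a set of p53, RAS and fibroblast genes listed with the rule. Genes whose name is a clone or locus identifier were left out of the ranking by size or bound. The other genes named with values, such as Spry4, Ccl2, Eln and Hoxd13, were chosen after their values were seen. A few genes that the rule names are not reported here. Replicate numbers equal slides. Deviations from group means of same-numbered arrays of the 2 groups correlated at 0.13, 0.20 and -0.03, and the numbers were not taken as pairs in the main fit. Alternatives covered background correction, scaling, filters, probe choice, spread, samples, block, thresholds, the authors' table and leaving out arrays.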

Additional observations from a re-analysis of the deposited data

How the results depend on the processing

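Of 5696 values for named genes over 23 alternatives, 5271 kept their direction and side of the threshold, 382 lost the call, 31 gained it and 12 reversed. Losses were most frequent under normexp (127) and with close pairs averaged (66). Genes called higher (2400) numbered 141 under normexp background correction, 1529 in a fit of the 2 groups with the replicate number as a block, 1176 at a 2-fold limit, 1263 at an adjusted p under 0.01, 656 with close pairs averaged and 4928 without the arrays that stand apart. Genes called lower (2812) numbered 235 under normexp, 1697 at the 2-fold limit, 1773 at 0.01, 959 with close pairs averaged and 4589 without the arrays that stand apart. Leaving out 1 array gave 1559 to 2641 higher and 2072 to 2904 lower, with 1559 without shp53 replicate 1 and 1566 without shp53 replicate 3. With the 75 largest local backgrounds (over 5 times an array's median) replaced, an added setting, normexp gave 2164 higher and 2045 lower. Of all calls, 46.1% were higher, and 37.5% under normexp. The median of all genes moved from 0.03 to -0.20 under normexp, 0.13 with backgrounds replaced, 0.12 with the array median and 0.19 without a filter.

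With the replicate block over all 12 arrays, 2494 genes were higher and 2842 lower. Deviations of same-numbered arrays from their group means correlated at 0.13, 0.20 and -0.03. Because 1 array stands apart in each group, these values cannot show whether arrays pair by slide.

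Reversals arose under normexp for Btc (-0.10), Prl8a9 (-0.53), Esam (-0.68), Sox2 (-0.43), Nrg2 (-0.70), Itga2 (-0.67), Itgb7 (-0.26) and Prl2a1 (-0.49), and with replaced backgrounds for Cdk6 (0.048), Vwf (0.093), Cd74 (0.092) and Tnnc2 (0.20), and in none of these was the reversed value called. The cause was not tested. For gene lists, 279 of 1656 counts moved by over 1.5 times. With 3 arrays a group, small differences cannot be shown, and dim genes have only bounds.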

Other observations

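Prolactin family genes, which are placental hormones at home in trophoblast giant cells, were called higher for 5 of 6 members tested and lower for 0, with a median log2 fold change of 3.46, or 2.40 with 2 members at their bounds. Prl2c5, one of the proliferin genes, read -4.12, -5.0 and -4.10 on the shp53 arrays and 3.24, 5.49 and 5.67 on the shp53+RAS arrays. It rose by 9.21 ± 0.63 (adjusted p = 4.66e-06). This gain was the widest among called, non-overlapping genes measured on all 6 arrays, with clone and locus names left out. The placental lactogen genes Prl3d1 and Prl3d2 rose by 3.31 ± 0.53 (adjusted p = 8.75e-04) and 4.0 ± 0.85 (adjusted p = 0.00459; 1 of 3 shp53 arrays well above background), with a second probe of Prl3d1 at 1.90, Prl8a9 was at least 2.82-fold higher (adjusted p = 3.88e-04; 2 of 3 shp53+RAS arrays well above background) and Prl2a1 at least 1.85-fold higher (adjusted p = 0.0451; 1 of 3 shp53+RAS arrays well above background), though under normexp they stood at -0.53 and -0.49. Members of the family are close copies, and their probes can share signal. Prl2c5 read 6.04 ± 0.09 (SD, n = 3) in RASV12 cells and -1.74 ± 0.96 in RASV12-first cells, so shp53+RAS cells exceeded the latter by 6.54 ± 0.63 (adjusted p = 9.13e-05) and did not pass against the former, at -1.24 ± 0.63 (adjusted p = 0.183). The call was lost with a single array left out for Prl2a1 without shp53 replicate 1, 2 or 3 (adjusted p from 0.09 to 0.103).

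Prostaglandin genes had 5 of 17 members higher and 6 lower, 29.4% and 35.3% beside 17.2% and 20.2% of all genes. The cyclooxygenases Ptgs2 and Ptgs1 read 1.86, 2.04 and 1.76 against 5.44, 4.64 and 4.65 and 2.68, 1.38 and 2.70 against 4.42, 4.35 and 4.32 in the order shp53 against shp53+RAS, and rose by 3.02 ± 0.22 (adjusted p = 7.63e-06) and 2.11 ± 0.33 (adjusted p = 7.48e-04). Ptges, a prostaglandin E synthase, rose by 0.99 ± 0.13 (adjusted p = 3.17e-04), with a second probe at 2.71, alongside Ptges2, and the receptor gene Ptger2 rose by 5.50 ± 0.70 (adjusted p = 2.25e-04; 1 of 3 shp53 arrays well above background). Hpgd, the enzyme that degrades prostaglandins, was at least 43.6-fold lower (adjusted p = 1.98e-04), with shp53 replicate 2 the lowest shp53 array. Adipocyte genes had 3 of 13 higher and 3 lower, 23.1% each way and near the 17.2% and 20.2% of all genes. The fatty acid carrier Fabp4 and the triglyceride enzyme Dgat2 rose by 2.43 ± 0.60 (adjusted p = 0.00988) and 1.75 ± 0.36 (adjusted p = 0.00361), as did Cebpd, while Cebpa and Plin4 fell, at -4.73 ± 0.49 (adjusted p = 5.46e-05; 2 of 3 shp53+RAS arrays well above background) and -2.20 ± 0.45 (adjusted p = 0.00373; 2 of 3 shp53+RAS arrays well above background), as did Cd36. Fabp4 and Plin4 were not called with close pairs averaged.

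Genes outside the lists follow. Kcnk10, a potassium channel gene, read -6.15, -6.33 and -7.27 on the shp53 arrays and 1.53, 0.73 and 0.77 on the shp53+RAS arrays and was at least 146-fold higher (adjusted p = 1.09e-07). Rasgrf1, an exchange factor that loads RAS with GTP, was at least 119-fold higher (adjusted p = 8.00e-06) by the probe used and 3.77 on the log2 scale by a second probe, the retinol uptake receptor Stra6 at least 84.9-fold higher (adjusted p = 1.44e-05), Tmem132d at least 57.7-fold higher (adjusted p = 2.43e-05) and the transcriptional repressor Bcl6b at least 47.5-fold higher (adjusted p = 3.57e-07). Of these, Tmem132d was also higher than in RASV12 and in RASV12-first cells, by 3.34 ± 0.73 (adjusted p = 0.00894) and 7.10 ± 0.73 (adjusted p = 1.32e-04). For this gene 1 of 3 RASV12-first arrays was well above background, so the size of the latter difference was not measured reliably. On the other side, Gjb2, which encodes a gap junction protein, was at least 253-fold lower (adjusted p = 2.21e-06), and Ecrg4 at least 289-fold lower (adjusted p = 5.89e-07). Pcsk6, a proprotein convertase, fell by 5.97 ± 0.53 (adjusted p = 2.05e-05).

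Markers of other cell types gave single genes in both directions. Of 8 endothelial markers tested, Esam was at least 2.11-fold higher (adjusted p = 0.00326; 2 of 3 shp53+RAS arrays well above background) but -0.68 under normexp, Erg at least 8.15-fold lower (adjusted p = 1.71e-06), Vwf at least 2.12-fold lower (adjusted p = 0.00853) but 0.093 under normexp with extreme backgrounds replaced, and Kdr fell by 1.33 ± 0.39 (adjusted p = 0.0226), with a second probe at -2.98. Of 8 neural and glial markers, Nefl was at least 15.5-fold higher (adjusted p = 0.00112), Sox2 rose by 3.32 ± 0.72 (adjusted p = 0.005; 1 of 3 shp53 arrays well above background), against -0.43 under normexp, and Tubb3 fell by 3.42 ± 0.50 (adjusted p = 4.92e-04). S100b did not pass (adjusted p = 0.0736, and 0.0482 without shp53+RAS replicate 3). Of 6 skeletal muscle markers, Chrna1 and Actn3 rose by 3.21 ± 0.55 (adjusted p = 0.00134) and 2.02 ± 0.39 (adjusted p = 0.00279), Myh8 was at least 14.1-fold lower (adjusted p = 1.92e-05), Des at least 6.97-fold lower (adjusted p = 1.30e-04), and Tnnc2 fell by 0.77 ± 0.23 (adjusted p = 0.0228; 1 of 3 shp53+RAS arrays well above background), against 0.20 under normexp with extreme backgrounds replaced. Of 7 epithelial and keratinocyte markers, Sprr1a and Ivl rose by 2.13 ± 0.58 (adjusted p = 0.016) and 3.16 ± 0.92 (adjusted p = 0.0214; 2 of 3 shp53 arrays well above background), Krt7 fell by 2.98 ± 0.78 (adjusted p = 0.0135; 1 of 3 shp53+RAS arrays well above background), and Krt18 did not pass (adjusted p = 0.0762). In fits that left out 1 array, the threshold was missed by Krt7 without shp53 replicate 1 (adjusted p = 0.0509), Sprr1a without shp53 replicate 2 (adjusted p = 0.0515), Ivl without shp53 replicate 2 or shp53+RAS replicate 1 (adjusted p from 0.0515 to 0.067), Kdr without shp53 replicate 1 or 3 or shp53+RAS replicate 1 or 2 (adjusted p from 0.06 to 0.0791), and Tnnc2 without shp53 replicate 1 or 2 or shp53+RAS replicate 2 (adjusted p from 0.0573 to 0.0687). Vwf, Sox2, Actn3, Kdr, Ivl, Sprr1a, Krt7 and Tnnc2 were not called with close pairs averaged. The surface gene Cd44 did not pass (adjusted p = 0.781), and its probes disagreed in sign.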
